A study of Mus musculus with 3 samples.

Results

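The report follows 10 genes of the actin cytoskeleton, of the 14933 genes in the deposited table of filtered cells. They are the cytoplasmic actins *Actb* and *Actg1*, the actin capping protein subunits *Capza2* and *Capzb*, the filament-severing protein *Cfl1*, the monomer-binding proteins *Pfn1*, *Pfn2* and *Tmsb10*, and the small GTPases *Rac1* and *Rac3*. The rows were picked by gene symbol with measured values of these libraries in view, so their levels and their ratios between libraries are given as a description and no p-value is attached to them. All 10 rows were found, and all 10 are also in the narrower table of neuronal cells that the authors made.

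Actin filaments fill growth cones, dendrites and spines and grow mainly at one end, called the barbed end. Profilin carries actin monomers to that end, beta-thymosins hold monomers in reserve, the capping protein, a dimer of an alpha and a beta subunit, stops growth there, and ADF/cofilin proteins sever old filaments. Rac GTPases switch on branched growth through the WAVE and Arp2/3 complexes, and in neurons these proteins are known for shaping axons and dendritic spines.

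The study asked how loss of *Tbr1*, a transcription factor of deep-layer projection neurons, alters gene expression in layer 5 neurons of the neonatal medial prefrontal cortex (mPFC). It holds 3 droplet libraries (10X Single Cell 3′ chemistry) of tdTomato-positive cells sorted by FACS at postnatal day 5, 1 library per genotype, from C57Bl6 mice. Wild-type cells came from *Rbp4*cre::tdTomato mice, *Tbr1*layer5 heterozygous cells from *Tbr1*f/+::*Rbp4*cre::tdTomato mice, and *Tbr1*layer5 homozygous cells from *Tbr1*f/f::*Rbp4*cre::tdTomato mice, so the Cre driver and the tdTomato reporter were present in every group, controls included. Cre under *Rbp4* regulatory sequence acts in layer 5 neurons, and recombination of the floxed allele removes exons 2 and 3 of *Tbr1*. How many animals went into a library is not given in the sources used here, and with 1 library per genotype a difference between libraries has no replicate check. Litter, dissection, sorting and library preparation cannot be told apart from genotype.

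Cells were taken in 3 classes from the lists of the authors. Typical neuronal cells, the cells the authors kept for differential expression, numbered 1778 (wild-type), 5357 (heterozygous) and 3935 (homozygous), and values in threes follow this sequence of libraries throughout. Atypical neuronal cells numbered 304, 107 and 462. The filtered cells that are not in the neuronal list, called outside cells, numbered 2873, 1398 and 1182. Levels are UMIs (unique molecular identifiers, each meant to mark 1 captured RNA molecule) of a gene summed over a class and divided by all UMIs of that class in the library, times 1000000 (CPM). A 3′ UMI marks 1 end of a molecule, so gene length does not enter these levels. All intervals are exact 95% intervals that cover counting error only.

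Typical cells held 3670646, 10418228 and 6074494 UMIs, with medians of 1901, 1743 and 1375 per cell and median mitochondrial shares of 10.4%, 15.4% and 12.5%. All 10 excitatory neuron markers had UMIs there, and their summed level was 2172, 2610 and 3281 CPM. The 11 astrocyte or radial glia markers summed to 6934, 6038 and 6909 CPM in typical cells. In empty droplets (barcodes with at least 100 and under 500 UMIs), taken here as free RNA, they summed to 6833, 6472 and 7080 CPM. Of the excitatory neuron markers, *Nrgn* alone was at 1692, 2062 and 2722 CPM in typical cells and at 876, 1306 and 1551 CPM in empty droplets. *Neurod6* was at 201, 246 and 240 CPM in typical cells and at 118, 164 and 153 CPM in empty droplets. Where the empty-droplet profile was subtracted as an alternative, its share was 24.8%, 8.55% and 17.8%. This share was limited by mural cell markers in wild-type and by meningeal fibroblast markers in heterozygous and homozygous cells. How much of the astrocyte or radial glia marker level in typical cells came from free RNA was not tested. *Tbr1* itself was at 27.5, 30.7 and 22.4 CPM, and since a 3′ tag lies outside the removed exons this checks nothing about the deletion. Blood markers (345, 44.6 and 85.8 CPM) and meningeal fibroblast markers (315, 34.7 and 47.1 CPM) were highest in wild-type typical cells. The nuclear RNA *Malat1* was also highest there, at 1130, 348 and 594 CPM. In every library *Malat1* was lower in typical cells than in empty droplets (3186, 1931 and 1908 CPM). It was higher still in outside cells (33113, 14926 and 26359 CPM). Atypical cells had 13185, 3505 and 2663 CPM. Whether the droplets of typical cells held intact nuclei was not tested. The part of these markers and of *Malat1* in the ratios below was not tested. There were 140 barcodes in more than 1 library.

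Together the 10 genes took 2.12%, 1.99% and 2.23% of all UMIs of typical cells, 1.93%, 1.57% and 2.07% in atypical cells, 1.90%, 2.003% and 2.20% in outside cells and 1.96%, 1.89% and 1.96% in empty droplets.

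The genes lie on GRCm38 as follows in the GENCODE vM21 annotation. *Actb* spans chr5:142903115-142906754 on the minus strand and *Rac1* chr5:143503634-143528036 on the same strand of the same chromosome. *Actg1* (chr11:120345690-120348542) and *Pfn1* (chr11:70651850-70654644) lie on the minus strand and *Rac3* (chr11:120721470-120723969) on the plus strand. *Capza2* spans chr6:17636234-17666972 on the plus strand, *Tmsb10* chr6:72957347-72958748 on the minus strand, *Capzb* chr4:139192899-139291818 on the plus strand, *Cfl1* chr19:5490455-5495201 on the plus strand and *Pfn2* chr3:57841895-57848079 on the minus strand.

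RefSeq promoter windows of GRCm38.p6, which run from 250 bases before to 50 bases after an annotated start, matched 8 of the 10 genes, and *Actb* and *Rac1* have no entry. The windows of the genes whose ratios between libraries had the same sign in nearly every cell type examined are printed here, 5′ to 3′ on the strand of the gene. Capitals mark the CArG box (the binding motif of serum response factor, a known regulator of actin genes) and the letters GGGCGG, read on either strand.
*Actg1*, chr11:120348446-120348745, minus strand: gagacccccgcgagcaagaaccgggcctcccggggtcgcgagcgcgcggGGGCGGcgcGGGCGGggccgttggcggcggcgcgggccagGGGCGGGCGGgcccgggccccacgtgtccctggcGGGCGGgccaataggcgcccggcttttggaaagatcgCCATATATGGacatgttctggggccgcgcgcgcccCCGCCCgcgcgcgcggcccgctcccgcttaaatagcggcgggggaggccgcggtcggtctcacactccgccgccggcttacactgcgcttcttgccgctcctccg
*Capza2*, chr6:17636760-17637059, plus strand: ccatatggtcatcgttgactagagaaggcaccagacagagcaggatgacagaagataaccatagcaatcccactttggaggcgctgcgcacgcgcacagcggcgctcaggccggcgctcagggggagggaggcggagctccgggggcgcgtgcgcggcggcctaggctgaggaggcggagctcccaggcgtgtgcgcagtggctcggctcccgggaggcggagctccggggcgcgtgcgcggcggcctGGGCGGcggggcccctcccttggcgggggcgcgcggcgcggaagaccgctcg
*Pfn1*, chr11:70654601-70654900, minus strand: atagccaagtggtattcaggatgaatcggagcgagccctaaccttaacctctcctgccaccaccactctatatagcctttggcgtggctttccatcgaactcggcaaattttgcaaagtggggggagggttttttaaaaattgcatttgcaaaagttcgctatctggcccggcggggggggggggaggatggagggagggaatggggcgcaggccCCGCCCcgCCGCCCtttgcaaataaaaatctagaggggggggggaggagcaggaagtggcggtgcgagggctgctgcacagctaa
The *Actg1* window is the one window of these genes with a CArG box, at bases 161 to 170, which 1.63% of all 32851 windows hold. GGGCGG occurs in 35.7% of all windows, so its presence in the 3 sequences is a common feature. The letters TATAAA, in 13.6% of all windows, and TCACACCT, a T-box half-site in 1.28% of all windows, were in no window of these genes, and neither match nor absence says anything about binding.

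The 2 cytoplasmic actins differ by a few amino acids at their start and are usually made together. In typical cells the level of *Actb* was 4247 CPM (4181 to 4314), 4700 CPM (4659 to 4742) and 4948 CPM (4893 to 5005). *Actg1* was at 1644 CPM (1603 to 1686), 1400 CPM (1378 to 1423) and 1311 CPM (1282 to 1340). The 2 genes thus stood in opposite orders, *Actb* lowest and *Actg1* highest in the wild-type library, with no overlap of the counting intervals in either gene. The counting intervals of *Actb* leave out its uneven spread over cells, given below, and are too narrow for the sampling of cells. Which mutant library was higher in *Actb* depended on the cell barcodes used, as given below. In cells with a mitochondrial share under 10% (744, 227 and 664 cells) the heterozygous over wild-type log2 ratio of *Actg1* was 0.02, no longer below 0.

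On the log2 scale the heterozygous over wild-type ratio was 0.15 (0.12 to 0.17) for *Actb* and −0.23 (−0.27 to −0.19) for *Actg1*, and the homozygous over wild-type ratio 0.22 (0.19 to 0.25) and −0.33 (−0.38 to −0.28). Both comparisons use the same wild-type library. Taken as mean UMIs per cell, with no division by the total, the homozygous ratio of *Actb* was −0.20 and that of *Actg1* −0.75, where the median of all genes was −0.34. *Actb* took 72.1% (71.5 to 72.7) of the UMIs of the 2 actins in wild-type, 77.0% (76.7 to 77.4) in heterozygous and 79.1% (78.6 to 79.5) in homozygous typical cells, a share into which the total of the library does not enter. The share was lowest in the wild-type library in every class, at 71.8%, 80.5% and 81.5% in atypical cells, 76.5%, 82.4% and 82.9% in outside cells and 76.1%, 79.0% and 78.4% in empty droplets. In empty droplets the homozygous over wild-type log2 ratio of *Actb* was −0.08, of the other sign than in typical cells, and that of *Actg1* was −0.27.

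The capping protein alpha subunit *Capza2* had the largest ratios of the 10 genes in typical cells. Its levels were 155 CPM (143 to 169), 292 CPM (281 to 302) and 278 CPM (265 to 292), from 570, 3037 and 1691 UMIs. The wild-type library stood below both others, and these did not differ beyond counting error, with a homozygous over heterozygous log2 ratio of −0.07 (−0.15 to 0.02). After thinning every cell to 1000 UMIs, 13.3% of wild-type, 25.4% of heterozygous and 24.1% of homozygous typical cells had a *Capza2* UMI, against 26.9%, 41.6% and 34.0% before thinning.

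The log2 ratio of *Capza2* over wild-type reached 0.91 (0.78 to 1.04) in heterozygous cells and 0.84 (0.70 to 0.98) in homozygous cells. At a limit of 0.5, *Capza2* was 1 of 10 genes above it in each comparison, and none of the 10 was at or below −0.5. With mean UMIs per cell the homozygous ratio of *Capza2* was 0.42, so that 0 of the 10 genes reached 0.5 and 1 (*Actg1*) was at or below −0.5, while 17 genes of 4261 reached 0.5 and 1214 were at or below −0.5. By CPM, among the 4261 genes that averaged at least 20 CPM, 6.52% reached 0.5 and 3.83% were at or below −0.5 in the heterozygous comparison, and 5.54% and 3.26% in the homozygous comparison. The median ratio of the 10 genes was 0.12 and 0.19, beside 0.06 and 0.08 over all 4261 genes, and nothing particular to the group is read from these values.

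In every other class the wild-type library was also the lowest. *Capza2* was at 158, 273 and 219 CPM in atypical cells, at 232, 346 and 370 CPM in outside cells and at 176, 325 and 271 CPM in empty droplets, where the log2 ratios over wild-type were 0.89 and 0.62. The wild-type library thus had the lowest level in cells and in free RNA alike. The other alpha subunit, *Capza1*, had only 67, 195 and 140 UMIs (18.3, 18.7 and 23.0 CPM), with both intervals of its ratio including 0. *Capza2* made up 89.5% (86.8 to 91.8), 94.0% (93.1 to 94.8) and 92.4% (91.0 to 93.5) of the alpha subunit UMIs.

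*Capzb*, the beta subunit that pairs with either alpha subunit, was at 161, 187 and 179 CPM. Its log2 ratio over wild-type reached 0.22 (0.09 to 0.35) in heterozygous cells and 0.15 (0.01 to 0.30) in homozygous cells, with an interval below that of *Capza2* in both. The UMIs of *Capza2* and *Capzb* were thus near 1 to 1 in wild-type typical cells (570 and 590) and in excess for *Capza2* in the mutant libraries (3037 and 1950, 1691 and 1087). Free RNA also held more *Capza2* than *Capzb*. In empty droplets whose barcode had at most 6 G or C bases, *Capza2* was at 179, 329 and 258 CPM and *Capzb* at 150, 229 and 200 CPM. Whether the excess in cells came from free RNA was not tested.

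**Figure D1:**
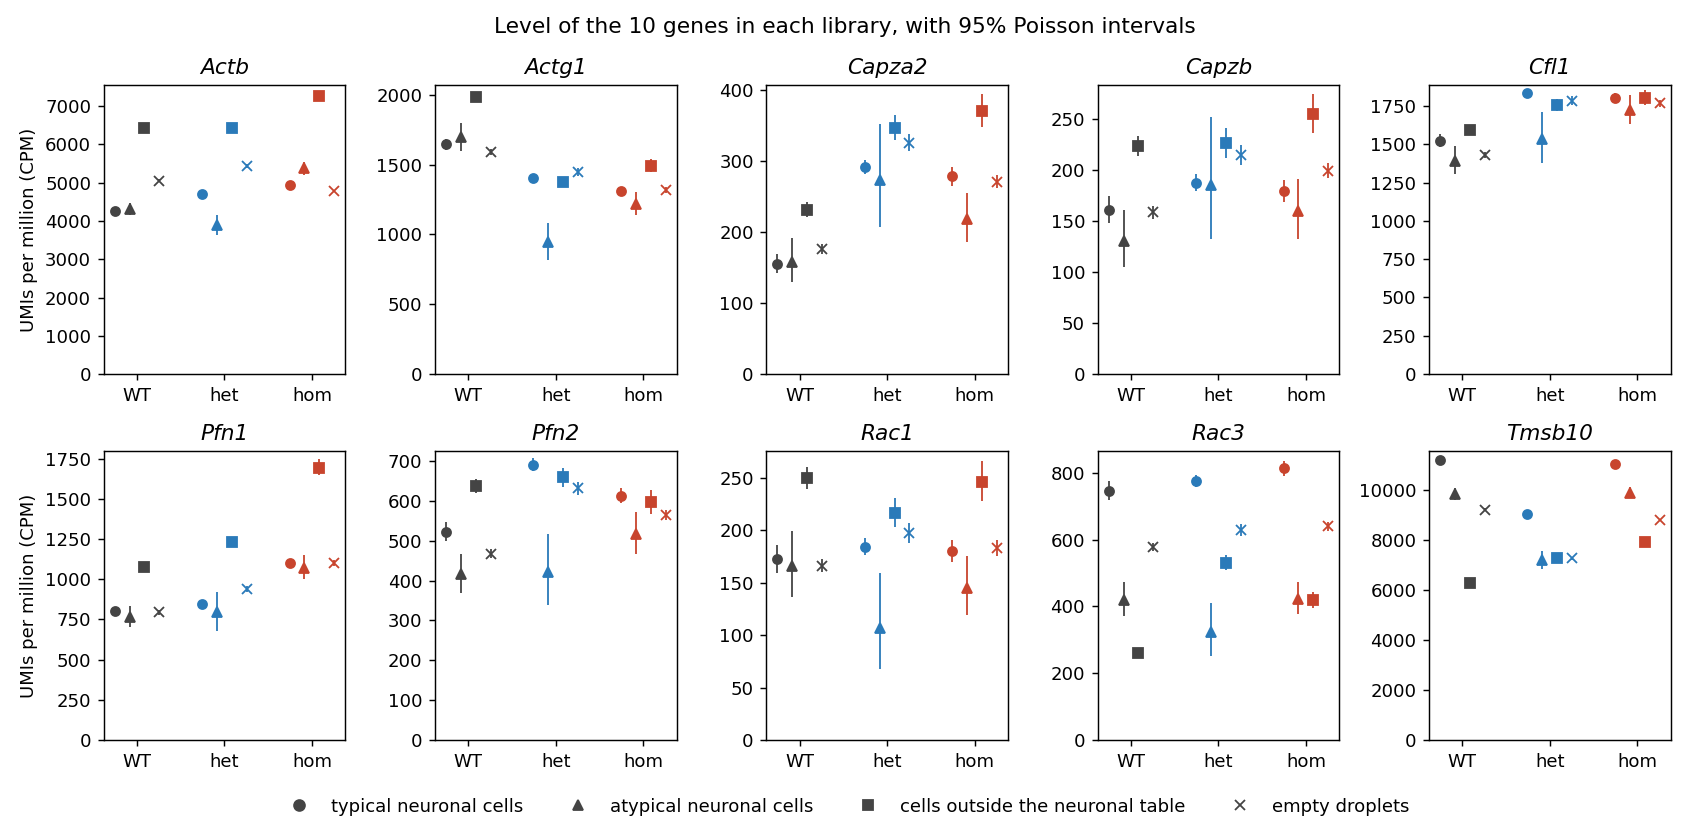
Levels in CPM (linear y axes that start at 0 and differ between panels) of the 10 genes in the wild-type (WT), heterozygous (het) and homozygous (hom) library, with circles for typical cells, triangles for atypical cells, squares for outside cells, crosses for empty droplets and vertical lines for exact 95% Poisson intervals of counting error. *Tmsb10* (11189 CPM in wild-type typical cells) and *Actb* (4247 CPM) are the highest, and *Capza2* is lowest in the wild-type library in every class.

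*Cfl1*, the main ADF/cofilin protein of most cells, was at 1524 CPM (1484 to 1564), 1833 CPM (1807 to 1859) and 1801 CPM (1767 to 1835) in typical cells. Both mutant libraries stood above wild-type, with log2 ratios of 0.27 and 0.24, and empty droplets had ratios of 0.32 and 0.30. Of its relatives, *Cfl2* was at 135, 179 and 163 CPM and the actin-depolymerizing factor *Dstn* at 278, 253 and 237 CPM, so *Dstn* was highest in the wild-type library. *Cfl1* took 78.7%, 80.9% and 81.8% of the UMIs of these 3 genes.

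The 2 profilins differed in which mutant library stood apart. *Pfn1*, the widely expressed profilin, was at 801 CPM (772 to 830), 847 CPM (829 to 865) and 1100 CPM (1073 to 1126), so the homozygous library stood above the other 2. *Pfn2*, the profilin enriched in brain, was at 523 CPM (499.9 to 547), 691 CPM (675 to 707) and 613 CPM (594 to 633), highest in the heterozygous library. The homozygous over heterozygous log2 ratio was 0.38 for *Pfn1* and −0.17 for *Pfn2*, and none of the 10 genes was past a limit there, where 1.08% of the 4261 genes reached 0.5 and 0.868% were at or below −0.5. *Pfn1* made up 60.5% (59.1 to 61.9), 55.1% (54.3 to 55.9) and 64.2% (63.3 to 65.1) of profilin UMIs. Empty droplets followed the same order for *Pfn1*, at 793, 940 and 1102 CPM.

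*Tmsb10* was the most abundant of the 10 genes and stood 7th, 9th and 7th among all genes in typical cells. Its levels were 11189 CPM (11081 to 11298), 9021 CPM (8964 to 9079) and 11044 CPM (10960 to 11127). Only the heterozygous library was set apart, with a log2 ratio over wild-type of −0.31 (−0.33 to −0.29) against −0.02 for the homozygous library. Empty droplets gave −0.34 and −0.07. The X-linked relative *Tmsb4x* was at 6234, 5526 and 5238 CPM, and *Tmsb10* took 64.2%, 62.0% and 67.8% of the beta-thymosin UMIs.

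*Rac1*, which is expressed in nearly all tissues, and *Rac3*, which is enriched in the developing nervous system, differed little between libraries in typical cells. *Rac1* was at 172 CPM (159 to 186), 184 CPM (176 to 193) and 180 CPM (169 to 191), and the intervals of both ratios included 0. *Rac3* was at 747 CPM (719 to 775), 776 CPM (759 to 793) and 814 CPM (791 to 837), with log2 ratios of 0.06 (−0.01 to 0.12) and 0.12 (0.06 to 0.19). The homozygous interval thus lay above 0. The paper counts *Rac3* among its differentially expressed genes, from a test on cells that was not repeated here. *Rac3* UMIs outnumbered those of *Rac1* in all 3 libraries, where *Rac1* made up 18.7% (17.4 to 20.1), 19.2% (18.4 to 19.98) and 18.1% (17.1 to 19.1) of the UMIs of the pair. *Rac2*, the Rac of blood cells and microglia, had 12, 14 and 9 UMIs in typical cells.

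**Figure D2:**
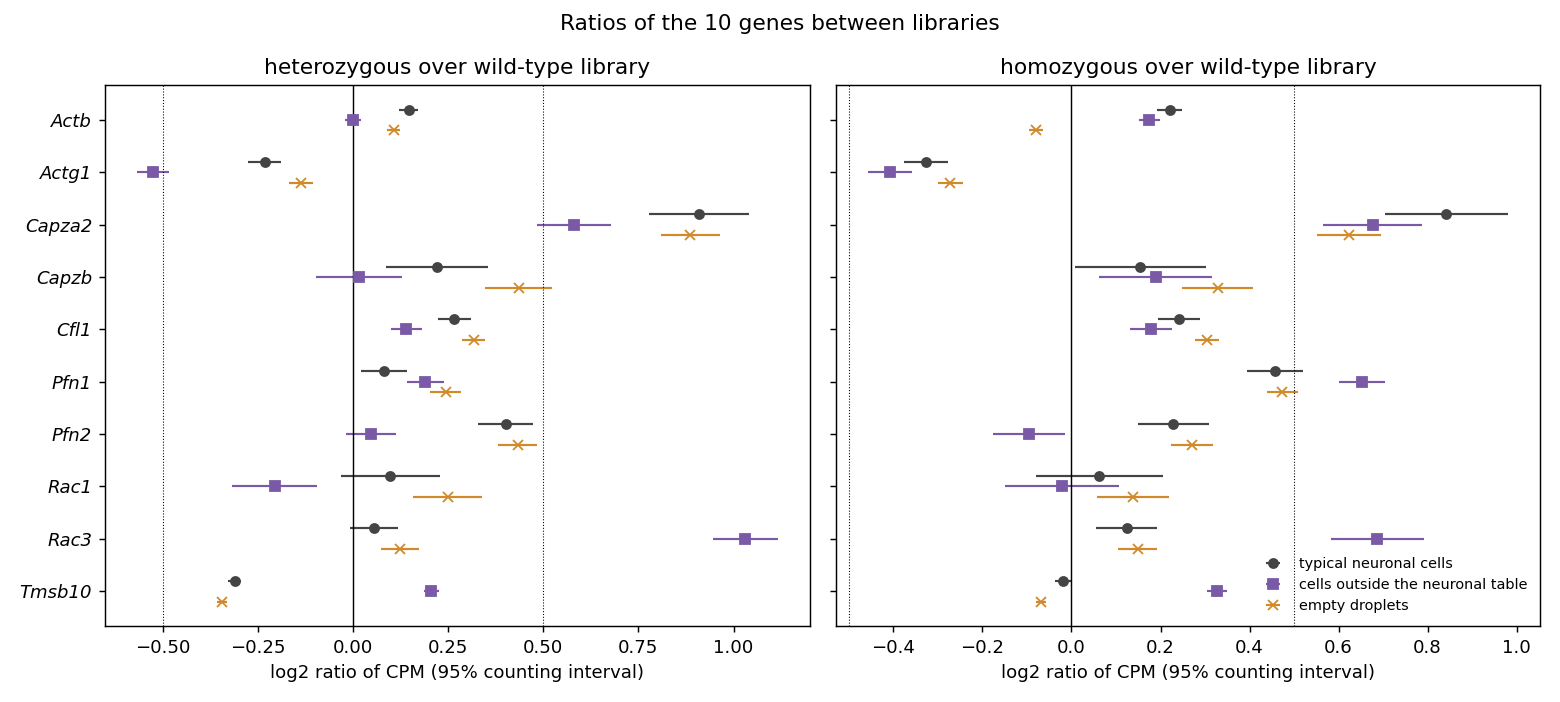
Log2 ratios of CPM over the wild-type library (x axis) for the 10 genes (y axis) in typical neuronal cells, outside cells and empty droplets, with exact 95% intervals of counting error. Dotted lines mark −0.5 and 0.5. *Capza2* lies above 0.5 in all 3 classes in both panels, and *Actg1* lies below 0 in all of them.

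Of the related genes of actin regulation on a fixed list, 123 of 126 were in the table and 69 had a mean of at least 20 CPM in typical cells. In the heterozygous comparison 3 of the 69 reached a log2 ratio of 0.5, as did 6.52% of all genes, and 1 was at or below −0.5, as were 3.83%, with a median of 0.04 beside 0.06 over all genes. In the homozygous comparison 2 reached 0.5, as did 5.54% of all genes, and none was at or below −0.5, as were 3.26%, with a median of 0.07 beside 0.08. In cells with a mitochondrial share under 10%, 14 of 71 were at or above 0.5 and 5 at or below −0.5 (heterozygous), and 6 and 2 (homozygous). There, 1109 and 362, and 622 and 303, of 4553 genes were. With mean UMIs per cell, 0 and 21 of the 69 were in the homozygous comparison, beside 17 and 1214 of 4261 genes. The 19 tested genes of the Arp2/3 complex, which nucleates branched filaments, and its activators had medians of 0.19 and 0.20, beside 0.06 and 0.08 over all genes, with 2 and 1 at or above 0.5, where all genes had 6.52% and 5.54%. The 5 tested capping genes other than *Capza2* and *Capzb* had none past the limit in either direction.

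Among pathway genes of at least 100 CPM with the same sign in both comparisons, the largest positive ratios belonged to *Arpc5*, *Marcksl1*, *Fscn1* and *Arpc4*. The Arp2/3 subunit *Arpc5* was at 230, 338 and 304 CPM (log2 ratios 0.55 and 0.40) and the subunit *Arpc4* at 150, 197 and 183 CPM (0.39 and 0.29). The filament-binding protein *Marcksl1* was at 1163, 1545 and 1494 CPM (0.41 and 0.36) and the bundling protein fascin, *Fscn1*, at 163, 217 and 207 CPM (0.41 and 0.35). On the negative side, the growth cone protein *Basp1* was at 1415, 1014 and 1159 CPM (−0.48 and −0.29), the pointed-end capping protein *Tmod2* at 159, 139 and 135 CPM (−0.19 and −0.23) and the filament-binding protein *Cotl1* at 160, 137 and 141 CPM (−0.22 and −0.19). *Tmsb4x*, with values given above, completed the negative side.

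The UMIs of *Actb* were spread unevenly over cells. In cells thinned to 1000 UMIs the median was 3 *Actb* UMIs in each library and the highest cell had 31, 31 and 40. The variance was 4.68, 4.59 and 5.52 times the mean, against 1.11, 1.07 and 1.08 for *Actg1*, whose counts were close to Poisson counts. Across cells of a library, the correlation of any 2 of the 10 genes was between −0.06 and 0.08, over 1778 to 5357 cells that share a library and 1 fixed depth. After thinning, *Capza2*, for example, had no UMI in 86.7%, 74.65% and 75.9% of cells. Counts this low hold correlations near 0, so whether the genes vary together cannot be read from these values.

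The spread of *Actb* followed the base composition of the cell barcode, the 16-base DNA tag that marks a droplet. Barcodes of typical cells had between 5 and 11 G or C bases, with a median of 8 in each library. In wild-type typical cells *Actb* was at 10763 CPM in the 244 cells whose barcode had at most 6 G or C, at 3511 CPM in the 1237 cells in between, and at 1966 CPM in the 297 cells with at least 10. In heterozygous cells it was at 11351, 3837 and 2392 CPM (755, 3750 and 852 cells), and in homozygous cells at 13469, 3999 and 2113 CPM (532, 2724 and 679 cells). *Actb* was thus 5.48-fold (log2 ratio 2.45, 2.36 to 2.54), 4.75-fold (2.25, 2.20 to 2.297) and 6.37-fold (2.67, 2.61 to 2.74) higher in cells with the fewest G or C in the barcode. A barcode carries no information on the cell that receives it, and this pattern was found after the values were seen. Whether every *Actb* UMI marks a captured *Actb* molecule was not tested, which also bears on the *Actb* levels and *Actb* shares printed above and below.

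Cell by cell, the mean number of *Actb* UMIs per 1000 fell with each added G or C, from 11.8 at 5 to 1.75 at 11 in wild-type, from 13.3 to 2.29 in heterozygous and from 17.0 to 2.06 in homozygous typical cells. Most of the decline lay between 6 and 8, where the wild-type means were 10.7, 5.99 and 2.75. As a description, the correlation of thinned *Actb* UMIs with the number of G or C was −0.60, −0.56 and −0.64, and that of *Actg1* was 0.01, 0.03 and −0.01. The cells with few and with many G or C had similar medians of UMIs, 1939 and 1975 in wild-type, 1839 and 1726 in heterozygous and 1386 and 1387 in homozygous.

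**Figure D3:**
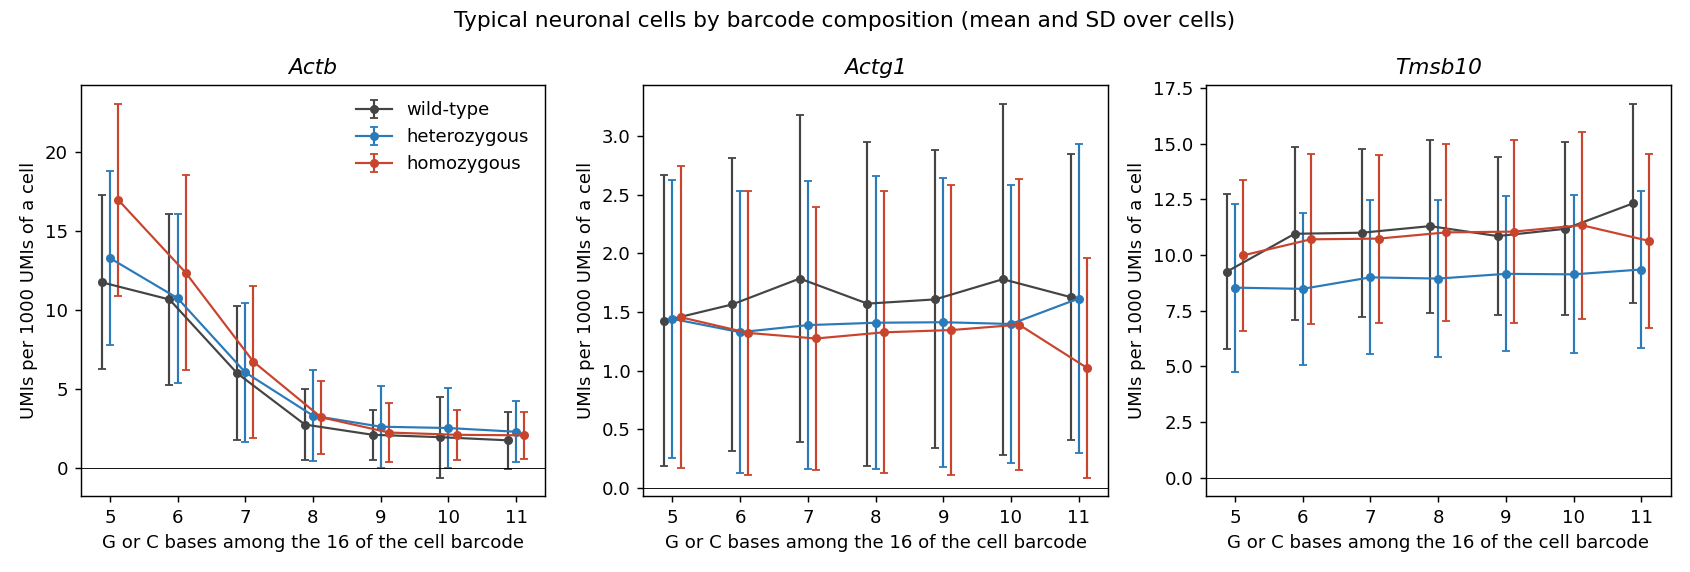
Mean *Actb*, *Actg1* and *Tmsb10* UMIs per cell after thinning to 1000 UMIs (y axis, bars are 1 SD over cells, axes differ between panels) against the number of G or C bases in the cell barcode (x axis) in typical cells of each library. *Actb* falls from 11.8 to 1.75 UMIs in wild-type, from 13.3 to 2.29 in heterozygous and from 17.0 to 2.06 in homozygous cells, with no such fall in *Actg1* or *Tmsb10*.

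*Actb* was the 1 member with a log2 ratio of few over many G or C of at least 0.5 in all 3 libraries, as were 2.09% of the 4261 genes, while 0.0704% were at or below −0.5 in all 3. The other 9 had log2 ratios between −0.34 (*Capzb*, homozygous) and 0.11 (*Rac1*, wild-type), among them *Actg1* at −0.15, −0.05 and 0.03 and *Tmsb10* at −0.11, −0.10 and −0.08. Ranked by the smallest of the 3 ratios, *Actb* stood 5th of the 1237 genes of at least 100 CPM. Of 2 further genes chosen here after their values were seen, the mitochondrial carrier *Sfxn5* had ratios of 3.56, 3.33 and 3.67 and the G protein subunit *Gnb1* 2.26, 2.76 and 2.39.

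The same relation held in droplets of every kind. The log2 ratio of *Actb* between few and many G or C was 2.81, 2.52 and 2.91 in atypical cells, 2.37, 2.28 and 2.90 in outside cells and 1.97, 1.91 and 2.62 in empty droplets. Where 1 barcode occurred in 2 libraries, *Actb* of the cell in the one library went with *Actb* of the cell in the other, with an r of 0.47 over 139 pairs. The r of the other 9 genes lay between −0.12 (*Tmsb10*) and 0.14 (*Capza2*). In the 54 pairs of typical cells the r of *Actb* was 0.50, that of *Capza2* 0.41 and that of *Actg1* −0.08.

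The share of cells with few G or C was similar between libraries, 13.7%, 14.1% and 13.5%, and the ratios of *Actb* between libraries still depended on which barcodes were used. The heterozygous over wild-type log2 ratio was 0.08, 0.13 and 0.28 in barcodes with few, intermediate and many G or C. The homozygous over wild-type ratio ran the other way, 0.32, 0.19 and 0.10 (0.00 to 0.21 in the last). With the cells whose barcode had at least 9 G or C, 717, 2054 and 1575 in number, the ratios were 0.33 and 0.14, so the heterozygous library rather than the homozygous was the highest. *Actg1* stayed below wild-type in all 3 sets, at −0.20, −0.22 and −0.29 (heterozygous) and −0.23, −0.33 and −0.41 (homozygous).

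*Capza2* stayed above wild-type in the same sets, at 1.04, 0.94 and 0.66 (heterozygous) and 0.77, 0.92 and 0.59 (homozygous). The *Actb* share of the 2 actins depended more on the barcode than on the library. It was 87.3%, 89.2% and 90.9% in cells with few G or C and 53.1%, 62.8% and 61.7% in cells with many, and the wild-type library was lowest in each set.

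Outside the neuronal table, cell types were assigned by clustering and marker genes. Of 5453 outside cells in 20 clusters, 3564 fell into 12 clusters with a name and 9 cell types, and 1889 stayed unnamed. The types were inhibitory neuron-like (1060 cells), astrocyte or radial glia-like (808), endothelial cell-like (455), excitatory neuron-like (394), oligodendrocyte lineage-like (279), microglia-like (187), meningeal fibroblast-like (166), mural cell-like (153) and blood cell-like (62). The mixture differed between libraries, with 54 wild-type, 295 heterozygous and 45 homozygous excitatory neuron-like cells, so a ratio over all outside cells also carries the mixture of types. There, 2 of the 10 genes (*Capza2* and *Rac3*) were at or above 0.5 and 1 (*Actg1*) at or below −0.5 in the heterozygous comparison, where 10.1% and 26.7% of 5929 genes were, and 3 (*Capza2*, *Pfn1* and *Rac3*) were at or above 0.5 and none at or below −0.5 in the homozygous comparison, where 7.74% and 10.7% were. Doublets were not called. With coarser clustering (15 clusters) the same 9 types were named, with 930 rather than 394 excitatory neuron-like and 607 rather than 455 endothelial cell-like cells. With finer clustering (29 clusters) no cluster was named endothelial cell-like, so the endothelial cell-like values have no counterpart there. In excitatory neuron-like cells, markers of astrocytes or radial glia summed to 5943 CPM, of excitatory neurons to 3479 CPM and of inhibitory neurons to 1100 CPM. Whether these cells are a mixture was not tested.

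The 2 actins did not share an order over the cell types. With the 3 libraries summed, *Actb* ran from 3288 CPM in astrocyte or radial glia-like cells to 15270 CPM in microglia-like cells, with 10616 CPM in mural cell-like and 7804 CPM in inhibitory neuron-like cells. The lowest place went to blood cell-like cells with both coarser (2237 CPM) and finer (3921 CPM) clustering. The order kept its ends within barcodes of at least 9 G or C, where *Actb* was at 1822 CPM in astrocyte or radial glia-like and 8852 CPM in microglia-like cells, and in these types *Actb* was 4.10-fold to 8.40-fold higher with at most 6 G or C. *Actg1* was highest in inhibitory neuron-like cells (2512 CPM) and lowest in blood cell-like cells (678 CPM), where hemoglobin and other blood markers took 441736 CPM and so lowered the level of every other gene. Endothelial cell markers stood at 9464 CPM in blood cell-like cells, 24245 CPM in endothelial cell-like cells and at most 2396 CPM in the other types. Coarser clustering named 36 rather than 62 cells blood cell-like, and whether these cells are a mixture was not tested.

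The 2 profilins, and *Rac1* and *Rac3*, stood in different orders over the cell types. *Pfn1* was at 2795 CPM (2654 to 2942) in microglia-like, 2297 CPM (2223 to 2373) in endothelial cell-like and 2234 CPM (2084 to 2393) in mural cell-like cells, and at 660 CPM (630 to 692) in inhibitory neuron-like cells. *Pfn2* was at 1146 CPM (1106 to 1187) in inhibitory neuron-like and 999 CPM (936 to 1065) in oligodendrocyte lineage-like cells, and at 105 CPM (89.7 to 122) in endothelial cell-like cells. *Pfn1* therefore made up from 36.6% of profilin UMIs in inhibitory neuron-like to 95.6% in endothelial cell-like cells.

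*Rac3* was highest in the excitatory neuron-like cells at 780 CPM (738 to 824), followed by inhibitory neuron-like cells at 468 CPM (442 to 495), and lowest in endothelial cell-like cells at 101 CPM (85.6 to 118). By library, *Rac3* was at 831, 758 and 939 CPM in excitatory neuron-like and 359, 619 and 651 CPM in inhibitory neuron-like cells, of which 693 of 1060 were wild-type. The inhibitory neuron-like log2 ratios over wild-type were 0.79 (0.59 to 0.98) and 0.86 (0.66 to 1.06). With finer clustering *Rac3* was at 296 CPM in inhibitory neuron-like cells, below 325 CPM in astrocyte or radial glia-like and 311 CPM in microglia-like cells, so the second place was not kept. The inhibitory neuron-like class then held 815 rather than 1060 cells, and its ratios between libraries were not recomputed there. *Rac1* was highest in microglia-like cells at 436 CPM (382 to 496) and oligodendrocyte lineage-like cells at 396 CPM (356 to 438), which did not differ beyond their intervals. *Rac1* took 17.9% of the UMIs of the pair in excitatory neuron-like and 77.8% in endothelial cell-like cells. *Rac2* was at 260 CPM in microglia-like cells.

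*Rac3* was also the 1 member with a log2 ratio of outside over typical cells at or below −0.5 in all 3 libraries. This ratio was −1.52, −0.55 and −0.96 for *Rac3* and −0.83, −0.31 and −0.48 for *Tmsb10*, and 1.77% of 5184 genes were at or below −0.5 in all 3. In atypical over typical cells it was −0.83, −1.26 and −0.94, again the 1 member at or below −0.5 in all 3, as were 3.69% of 4278 genes. No member was at or above 0.5 in all 3 libraries in either comparison, as were 26.9% and 2.24% of all genes. The level of *Rac3* was 747, 776 and 814 CPM in typical, 420, 324 and 423 CPM in atypical and 260, 531 and 419 CPM in outside cells.

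*Capza2* was at 776 CPM (702 to 855) in microglia-like cells and between 130 and 289 CPM in the other 8 types. By library, *Tmsb10* was at 10919, 9243 and 12145 CPM in endothelial cell-like, 12422, 9236 and 11742 CPM in excitatory neuron-like and 8949, 8418 and 9568 CPM in inhibitory neuron-like cells. The order of endothelial cell-like and excitatory neuron-like cells thus differed between libraries. In microglia-like cells, libraries summed, *Tmsb10* was at 2570 CPM and *Tmsb4x* at 15698 CPM. With finer clustering, which named 338 rather than 187 cells microglia-like, *Tmsb10* was at 4180 CPM there. *Tmsb10* made up 14.1% of beta-thymosin UMIs in microglia-like cells.

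**Figure D4:**
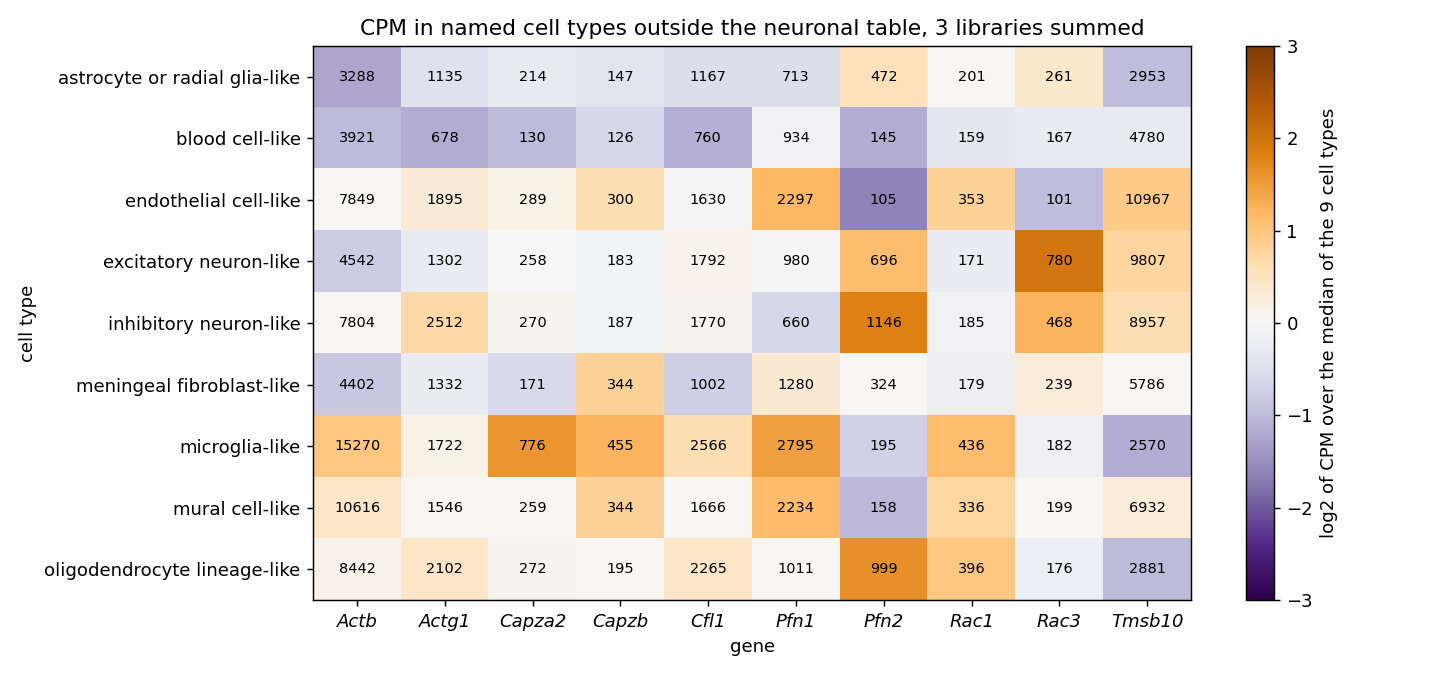
CPM of the 10 genes (columns) in the 9 named cell types outside the neuronal table (rows), 3 libraries summed, with color showing the log2 distance from the median of the 9 types. *Pfn1*, *Capza2* and *Actb* are highest in microglia-like cells (2795, 776 and 15270 CPM) and *Pfn2* in inhibitory neuron-like cells (1146 CPM).

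The libraries were also compared within each of the 9 cell types, of which 1 is named for excitatory neurons. *Actg1* was below wild-type in 9 of 9 types in both comparisons, with medians of −0.44 and −0.39 and the interval below 0 in 7 and 5 types. In these types 5.04% and 6.58% of the 1489 genes of at least 100 CPM were below 0 in all 9. In inhibitory neuron-like cells *Actg1* was at 2796, 2034 and 2127 CPM, and in microglia-like cells at 2011, 1299 and 1654 CPM.

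*Capza2* was above wild-type in 8 of 9 types in the heterozygous and 9 of 9 in the homozygous comparison, with medians of 0.70 and 0.72 and the interval above 0 in 5 and 7. *Pfn1* was above wild-type in 9 of 9 types in both comparisons, with medians of 0.23 and 0.52 and the interval above 0 in 3 and 8. In all 9 types, 4.37% and 4.30% of genes were above 0. The share of genes above 0 in 8 of 9 types, which would match heterozygous *Capza2*, was not counted. Neither were shares for the interval counts of *Actg1*, *Capza2* and *Pfn1*, or for the numbers of types of *Actb* and *Tmsb10* given below. In microglia-like cells *Capza2* was at 594, 950.0 and 980 CPM, from 158, 158 and 93 UMIs.

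*Actb* had no single direction over the types. Its log2 ratio over wild-type was above 0 in 6 of 9 types in the heterozygous comparison, from −0.30 to 1.28, and in 5 of 9 in the homozygous comparison, from −0.51 to 0.98. *Tmsb10* was above 0 in 2 and 3 of 9 types, although over all outside cells its ratios were 0.21 and 0.33. The types of 1 library share their preparation, and some types held few cells, such as 13 heterozygous oligodendrocyte lineage-like cells. The barcodes of these cells were not matched between libraries.

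**Figure D5:**
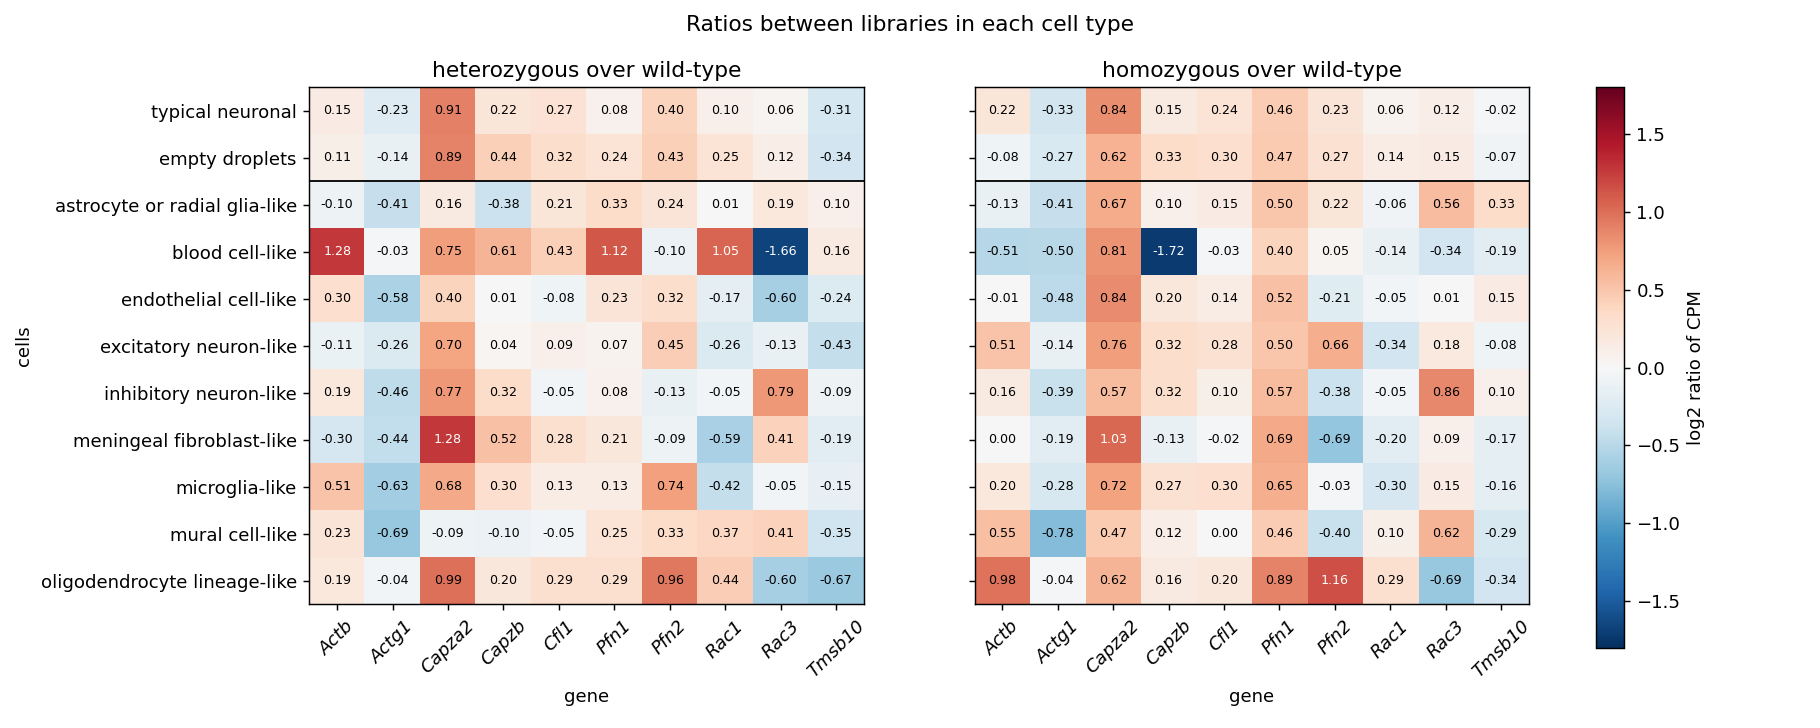
Log2 ratios of CPM over the wild-type library for the 10 genes (columns) in typical neuronal cells, empty droplets and the 9 named cell types (rows), heterozygous on the left and homozygous on the right. The *Actg1* column is below 0 in every row of both panels, and the *Capza2* column is above 0 in all rows but the heterozygous mural cell-like cells (−0.09).

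Over the 9 profiles of library and cell class, the genes with levels most like those of *Actb*, by Pearson r of log2(CPM + 1) among 1292 genes, were *Actr3* (0.97), *Ube2d3* (0.97) and *Tspan13* (0.97). For *Actg1* they were *Ubxn1* (0.97), *Snrpd1* (0.96) and *Bzw2* (0.95). The 2 actins had an r of 0.37 with each other, and *Actb* was closest among the members to *Pfn1*, at 0.92. The 9 profiles share 3 libraries, and these values are a description.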

How the data were processed

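Libraries were 10X Single Cell 3′ v2 scRNA-seq of FACS-sorted cells. Per the submitters' processing notes and the methods, Cell Ranger 2.0.1 with the mm10 genome gave the UMI counts that the authors deposited. The deposited filtered table holds raw counts of cells that the authors kept at up to 30% mitochondrial UMIs, 500 to 10000 UMIs in total and 500 to 3000 genes. The lowest totals were 1533, 1196 and 1040 UMIs in typical cells and 1533, 1188 and 1039 UMIs in outside cells. The lowest depth of a cell thus differed between libraries. Mitochondrial shares were deposited as a fraction per cell. The neuronal table named as raw counts in fact holds values on a natural log scale, normalized by the authors to 10000 UMIs, and was read for its genes, and the scaled table was not used here.

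The members, lists and alternatives were chosen with earlier results of these data known. UMIs were summed per library and class with Python 3.11.15, numpy 2.4.6 and pandas 2.3.3. Sums carry exact Poisson and ratios exact conditional binomial (Clopper-Pearson) intervals from scipy 1.17.1. UMIs are meant to count each molecule once, and the intervals leave out the spread between libraries. Each genotype had 1 library, so genotypes were not tested against each other, and the MAST test of the paper on cells was not repeated. Thinning drew 1000 UMIs per cell (seed 1), and no cell had fewer. Outside cells were clustered with scanpy 1.11.5 and leidenalg 0.10.2. A cluster was named only with at least 3 markers of a fixed list at 2-fold and at least 2 of them among its 10 leading genes. edgeR 4.0.16 and DESeq2 1.42.0 gave scaling factors for alternatives only. The named genes are the 10 members, their paralogs, the 4 pathway genes with the largest positive and the 4 with the largest negative ratios shared by both comparisons at a mean of at least 100 CPM, and the 3 genes most like each actin over the profiles. *Sfxn5*, *Gnb1*, *Nrgn* and *Neurod6* were added after their values were seen, and *Tbr1* and *Malat1* are named as checks of the libraries. The scripts were tested on simulated data.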

Additional observations from a re-analysis of the deposited data

Results flagged for a closer look

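A member was flagged where its log2 ratios over wild-type in outside and typical cells had counting intervals on opposite sides of 0. A change of sign with an interval that included 0 was not flagged, and how many of all genes met the rule was not counted. *Tmsb10* met it in both comparisons. In the heterozygous comparison its log2 ratio was 0.21 in outside cells and −0.31 in typical cells, and in the homozygous comparison 0.33 and −0.02. The last value was above 0 in 3 of 14 alternatives, by at most 0.02. *Pfn2* met the rule in the homozygous comparison, with −0.10 in outside cells and 0.23 in typical cells. With 1 library per genotype the difference between the classes was not tested, and the outside class held different mixtures of cell types in the 3 libraries.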

How the results depend on the processing

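No paired analysis was possible because each genotype has 1 library. *Capza2* stayed at or above a log2 ratio of 0.5 in 14 of 14 alternatives in the heterozygous comparison (0.71 to 1.02) and in 13 of 14 in the homozygous comparison (0.42 to 0.95), with 0.42 for mean UMIs per cell. With mean UMIs per cell, which leaves the depth of a library in the values and moved the median of all genes by −0.42 to −0.34 in the homozygous comparison, 0 members reached 0.5, 1 was at or below −0.5 (*Actg1*, −0.75), and *Actb* (−0.20), *Capzb*, *Cfl1*, *Pfn2*, *Rac1* and *Rac3* were below 0, as were *Pfn1* (−0.01) and *Rac3* (−0.03) in the heterozygous comparison. *Rac3* was also below 0 there once the empty-droplet profile had been subtracted, and *Tmsb10* in the homozygous comparison was above 0 in 3 alternatives, by at most 0.02. At a limit of 0.25, 3 members were above and 1 below in the heterozygous and 2 above and 1 below in the homozygous comparison, where 1022 and 601, and 1069 and 554, of all 4261 genes were. At a limit of 1 there were 0 in either, where 15 and 17, and 10 and 12, of all genes were. In cells with a mitochondrial share under 10% (744, 227 and 664 cells), the heterozygous ratio of *Actg1* was 0.02 where the median of all genes moved by 0.12 to 0.19, and the cause was not tested.

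The *Actb* share of the 2 actins was 70.6% in wild-type after subtraction of the empty-droplet profile, 76.7% in heterozygous and 80.3% in homozygous cells with 1500 to 2500 UMIs, 71.5%, 75.5% and 77.9% in cells with a mitochondrial share under 10%, and 54.7%, 63.8% and 62.3% in cells whose barcode had at least 9 G or C. The last alternative, and leaving out barcodes shared by libraries, were chosen after seeing the data. Of the 4261 genes, 278 were at or above 0.5 and 163 at or below −0.5 in the heterozygous comparison and 236 and 139 in the homozygous comparison. These numbers became 1109 and 362, and 622 and 303, of the 4553 genes that averaged at least 20 CPM in cells with a mitochondrial share under 10%, 424 and 104 in the heterozygous comparison without mitochondrial genes and *Malat1* in the total, 163 and 191 in the homozygous comparison with the neuronal genes as the total, and 153 and 263, and 17 and 1214, with mean UMIs per cell. Other alternatives left the *Actb* shares within their counting intervals. At coarser and finer clustering (15 and 29 clusters) levels moved by over 1.5 times in blood cell-like cells (*Actb*, *Capzb*, *Pfn1*, *Rac1* and *Rac3*, coarser) and, with the finer, for *Pfn2* (330 CPM), *Rac3* (311 CPM) and *Tmsb10* (4180 CPM) in microglia-like and *Rac3* (296 CPM) in inhibitory neuron-like cells, and no cluster was named endothelial cell-like with the finer.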
